A study of Mus musculus with 11 samples.

Results

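The comparison described here set tumours treated with CBL0137 directly against tumours treated with panobinostat, the single agents of a study that also gave both drugs together. It used 5 of the 11 libraries, 3 of CBL0137 (replicates 1, 2 and 3) and 2 of panobinostat (replicates 1 and 3). It covered 15497 of the 24411 genes in the table, those that reached a level of at least 1 TPM (transcripts scaled to 1000000 per library) in at least 2 of the 11 libraries. The 8914 genes below that level were not tested. All libraries came from homozygous Th-MYCN mice, which carry a MYCN transgene driven by the tyrosine hydroxylase promoter and develop neuroblastoma spontaneously. Mice with a tumour of about 5 mm by palpation received 1 dose of vehicle by intraperitoneal injection, CBL0137 at 40 mg/kg intravenously, panobinostat at 5 mg/kg intraperitoneally, or the combination. The design text gives 3 mice per group, and tumours were taken 16 h after the dose and flash frozen. A panobinostat replicate 2 was not analysed here. The 3 vehicle libraries gave the baseline level of each gene and entered no difference. Drug, dose and route differed together between the groups and cannot be told apart, and each tumour was a bulk sample, in which fewer cells of a type and less RNA per cell cannot be told apart.

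Both drugs act on chromatin, by different routes. CBL0137 is a curaxin, a small molecule that binds DNA, loosens the wrapping of DNA in nucleosomes and traps FACT, the histone chaperone made of SSRP1 and SUPT16, on chromatin. Panobinostat is a hydroxamate that inhibits histone deacetylases, so that acetyl groups accumulate on histones and other proteins. Neuroblastoma arises from sympathoadrenal precursors of the neural crest, and a tumour in a Th-MYCN mouse also holds blood vessels, fibroblasts, Schwann-like cells and immune cells. The interferon response, to which many of the genes below belong, starts from sensors of foreign or misplaced nucleic acid (RIG-I, MDA5, ZBP1), which act through adaptors and IRF factors to switch on interferon genes. Secreted interferon binds its receptors and activates STAT proteins, which with IRF9 form a complex that binds the interferon-stimulated response element (ISRE) in the promoters of effector genes.

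The promoters of 6 genes are shown because they hold or lack ISRE-like letters beside a known difference between the drugs. Each is the 200 bases that end just before a gene start in RefSeq on GRCm38.p6, written in the direction of the gene, with each match to the ISRE core GAAANNGAA on either strand in capitals. Isg15, Tgtp2, Cxcl9 and Cxcl10 were called higher with CBL0137, B2m was not called, and Crabp1 was called higher with panobinostat.
Isg15 (chr4:156200819-156201018, minus strand): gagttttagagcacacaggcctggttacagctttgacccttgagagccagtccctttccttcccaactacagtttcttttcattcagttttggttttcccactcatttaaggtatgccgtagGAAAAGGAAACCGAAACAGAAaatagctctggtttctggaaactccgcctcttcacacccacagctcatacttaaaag
Tgtp2 (chr11:49064213-49064412, minus strand): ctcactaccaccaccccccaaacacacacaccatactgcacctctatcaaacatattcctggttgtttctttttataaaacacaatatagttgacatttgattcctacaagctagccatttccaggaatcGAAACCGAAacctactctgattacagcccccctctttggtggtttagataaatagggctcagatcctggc
Cxcl9 (chr5:92328080-92328279, minus strand): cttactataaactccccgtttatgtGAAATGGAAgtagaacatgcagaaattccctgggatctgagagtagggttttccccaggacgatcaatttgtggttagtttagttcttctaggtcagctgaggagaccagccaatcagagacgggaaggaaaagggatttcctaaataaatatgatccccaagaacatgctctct
Cxcl10 (chr5:92348890-92349089, minus strand): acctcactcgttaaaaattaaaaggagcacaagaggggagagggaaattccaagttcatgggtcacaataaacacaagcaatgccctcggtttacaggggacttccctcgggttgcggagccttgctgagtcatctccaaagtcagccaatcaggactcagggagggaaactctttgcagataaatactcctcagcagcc
B2m (chr2:122147487-122147686, plus strand): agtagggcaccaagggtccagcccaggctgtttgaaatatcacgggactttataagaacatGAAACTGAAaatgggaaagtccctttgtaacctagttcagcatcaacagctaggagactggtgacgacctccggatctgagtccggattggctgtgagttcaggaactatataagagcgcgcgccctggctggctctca
Crabp1 (chr9:54764548-54764747, plus strand): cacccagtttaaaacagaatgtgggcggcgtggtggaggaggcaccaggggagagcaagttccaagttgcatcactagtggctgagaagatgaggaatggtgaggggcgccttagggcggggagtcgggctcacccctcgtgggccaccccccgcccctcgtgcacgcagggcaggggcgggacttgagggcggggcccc
The window of Isg15 holds 3 matches, those of Tgtp2, Cxcl9 and B2m hold 1 each and those of Cxcl10 and Crabp1 hold 0, overlapping matches being counted separately. Of the 12 genes furthest toward CBL0137, 8 have a RefSeq entry and 6 of these windows hold a match, with Cxcl10 and Irf7 the 2 that do not. Of the 12 furthest toward panobinostat, 9 have an entry and 1 window, that of Ccr2, holds a match. These genes were chosen with their values known, and for some, such as Ifit3 and Ccr2, the entry lies at a start inside the gene span.

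Over the promoter entries that RefSeq gives for 11577 of the tested genes (250 bases before to 50 after the start, the first entry of each gene), 7.42% held the ISRE core on either strand. The share was 12% among the 816 genes with an entry that were called higher with CBL0137 and 7.3% among the 1397 called higher with panobinostat. Among calls at least 2-fold apart, a cut chosen after the values were seen, it was 35% (41 of 117) with CBL0137 and 8.72% (79 of 906) with panobinostat. By gene list, 9 of 9 interferon-inducible GTPase genes with an entry held the core, as did 18 of 34 antiviral effectors, 5 of 16 class I antigen presentation genes and 3 of 20 collagen and matrix genes. The AP-1 motif TGANTCA stood in 5.36% of all entries, in 5.15% of those called higher with CBL0137 and in 6.51% of those called higher with panobinostat. Among calls at least 2-fold apart it stood in 16.2% and 7.17%, in that order. The cyclic AMP element TGACGTCA stood in 3.1% of all entries, in 32 of 816 called higher with CBL0137 and in 14 of 1397 called higher with panobinostat. At least 2-fold apart, it stood in 0 of 117 calls toward CBL0137 and in 10 of 906 toward panobinostat. The E-box CACGTG was found in 9.81% of all entries, 11.2% of those called higher with CBL0137 and 8.88% of those called higher with panobinostat, and the CCAAT box in 38.2%, 41.5% and 35.9%. In the 2-fold calls toward CBL0137 and panobinostat, the E-box stood in 5.13% and 8.06%, and the CCAAT box in 40.2% and 35.3%. A match to the letters is a description of the sequence and does not show a bound site.

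Several libraries stood apart from others of their group. Panobinostat replicate 3 held skeletal muscle transcripts, with a summed level of 15 muscle markers of 14249 TPM against 20.4 TPM in panobinostat replicate 1 and 15.1 to 98.9 TPM in the vehicle libraries. CBL0137 replicate 2 reached 887 TPM on the same markers. CBL0137 replicate 3 had the highest sums of 11 B cell markers (185 TPM, against 7.29 and 32.8 TPM in the other CBL0137 libraries) and 17 T cell markers (114 TPM, against 15.0 and 31.9 TPM). It also had the highest macrophage and fibroblast sums of its group. The 9 red cell markers in the table summed to 14984 TPM in CBL0137 replicate 2 and to 9326 and 14895 TPM in the panobinostat libraries, against 2618 and 1396 TPM in CBL0137 replicates 1 and 3. Depth is not recorded in TPM, which sum to 1000000 in each library, so no counting error could be given. The neuroblastoma factor gene Hand2 was present throughout, at 147, 132 and 129 TPM with CBL0137 and 177 and 112 TPM with panobinostat, and the adrenal cortex and kidney markers summed to at most 31.1 and 5.47 TPM in these 5 libraries. In vehicle replicate 2 the kidney markers summed to 449 TPM, against 1.46 and 4.02 TPM in vehicle replicates 1 and 3. Vehicle replicate 1 had the highest red cell sum of its group, 5699 TPM against 1481 and 738 TPM.

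Of the 15497 genes tested, 2935 (18.9%) passed an adjusted p of 0.05 in limma, with 1056 (6.81%) higher with CBL0137 and 1879 (12.1%) higher with panobinostat. Differences are given as CBL0137 minus panobinostat on the log2(TPM + 1) scale, which understates the difference of weakly expressed genes. The calls toward panobinostat were larger, with a median size of 1.17 against 0.60, and 1253 of them were at least 2-fold apart against 156 toward CBL0137. The genes called higher with CBL0137 had a median level of 63.3 TPM in vehicle tumours, 61.8 TPM with CBL0137 and 38.5 TPM with panobinostat. The genes called higher with panobinostat were more weakly expressed, with medians of 3.24 TPM in vehicle tumours, 5.09 TPM with CBL0137 and 13.8 TPM with panobinostat. In all 2935 called genes the values of the 3 CBL0137 libraries and the 2 panobinostat libraries did not overlap, which was so for 8211 of the 15497 tested genes.

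**Figure D1:**
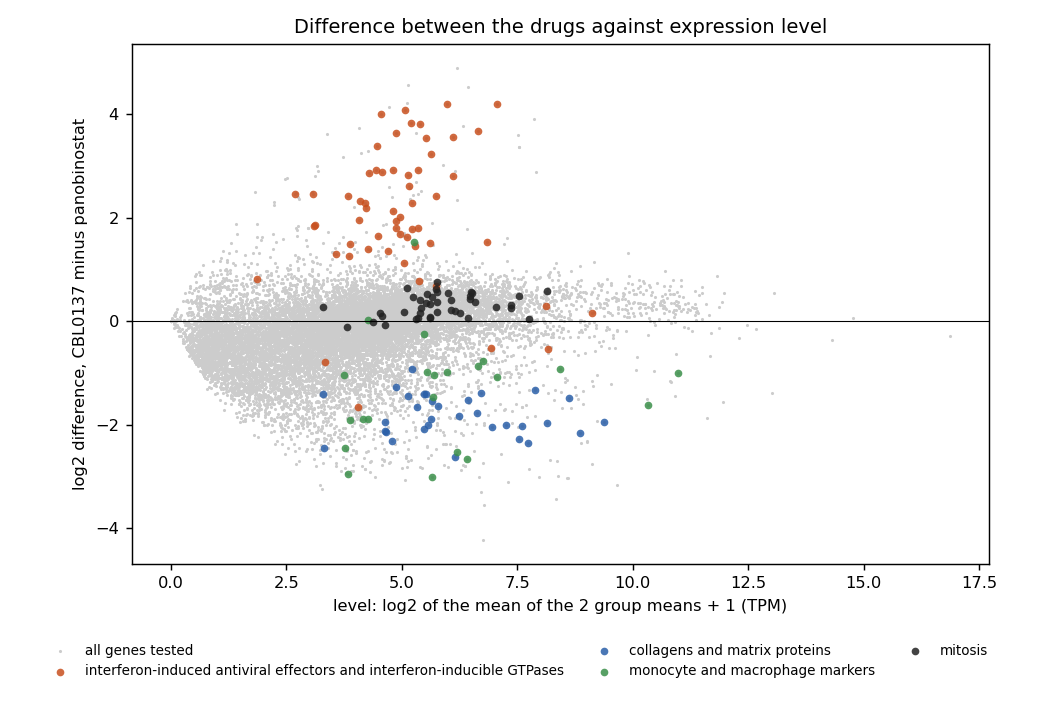
The log2 difference between CBL0137 and panobinostat (vertical axis) is plotted against the expression level of each of the 15497 tested genes (horizontal axis, log2 scale), with members of 5 gene lists in colour. The antiviral effectors reach 4.20 and the GTPases 3.80, the collagens and matrix proteins lie between -2.63 and -0.92, and the mitosis genes between -0.10 and 0.75.

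The median difference over all genes was -0.11, and it moved to -0.01 with unweighted trimmed-mean (TMM) factors and to 0.08 after quantile normalization. The split of calls moved with it, since 36.0% of calls were higher with CBL0137 in the fit reported, 47.5% (1555 against 1722 genes) with TMM factors and 53.3% (1339 against 1174 genes) after quantile normalization. Smaller differences are therefore relative to a zero that is set by the scaling. The number of calls also rested on the libraries. Without panobinostat replicate 3, the library with muscle transcripts, no gene passed (smallest adjusted p = 0.0558 in limma) and 4049 genes had an unadjusted p under 0.05, with panobinostat replicate 1 as the lone sample of its arm and its spread taken from the other groups. A limma fit of the 5 libraries alone, with 3 residual degrees of freedom, called 0 genes as well (smallest adjusted p = 0.0619, 5175 genes with an unadjusted p under 0.05). Without panobinostat replicate 1 the calls were 381 and 926, without CBL0137 replicate 1 they were 210 and 329, and without CBL0137 replicate 2 they were 275 and 448, toward CBL0137 and panobinostat in that order. Without vehicle replicate 3, which moves the pooled spread only, they were 694 and 1375. Without CBL0137 replicate 3, the fit given for many lists below, they rose to 1299 and 2718. A fit with a term for each replicate number, called the replicate block, gave 414 and 835. Every call below shares these limits, and 22 of the 1253 genes at least 2-fold higher with panobinostat were over 3 times higher in replicate 3 than in replicate 1.

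**Figure D2:**
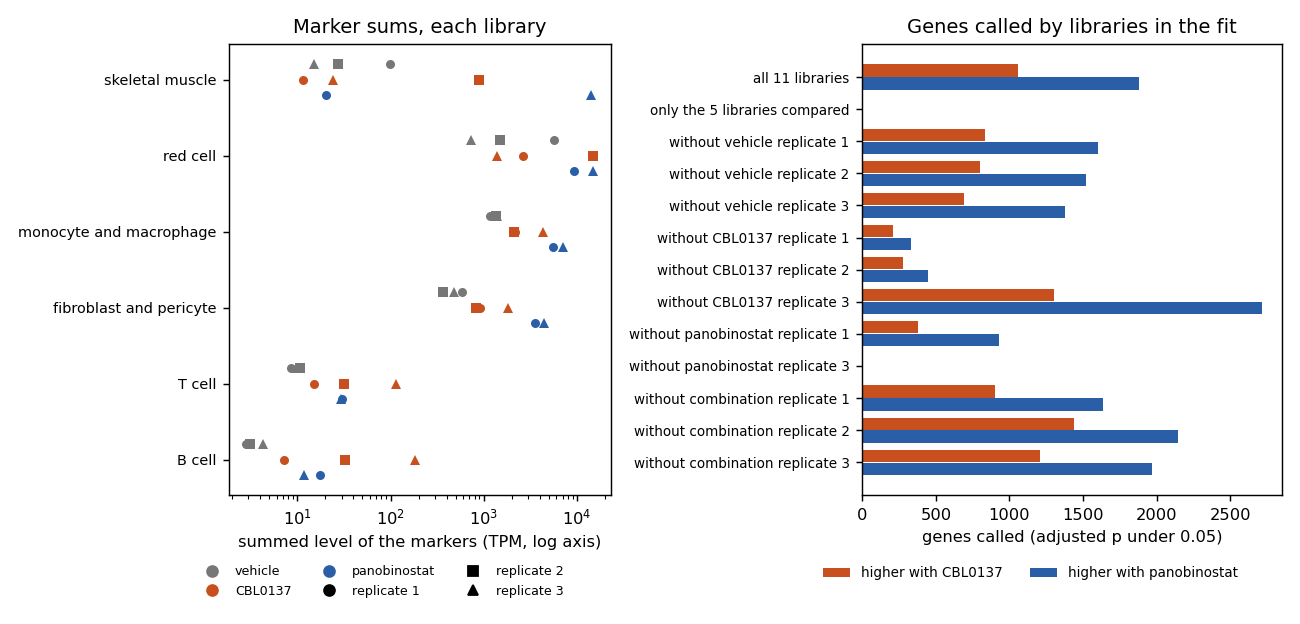
Left, the summed TPM of 6 sets of cell type markers in each vehicle, CBL0137 and panobinostat library (log axis). Right, the number of genes called in each direction with all 11 libraries, with the 5 compared libraries alone and with each library left out. The muscle sum of panobinostat replicate 3 reaches 14249 TPM, and the fits without that library or with 5 libraries call 0 genes.

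The 12 genes furthest toward CBL0137 were known interferon-stimulated genes. The furthest was Usp18 (chr6:121245906-121270917), which encodes a protease that removes ISG15 from proteins and dampens interferon receptor signalling. It was at 99.5, 93.1 and 232 TPM in the CBL0137 libraries and at 3.13 and 3.62 TPM in the panobinostat libraries, a difference of 4.90 (SE 0.41, adjusted p = 0.00368). The lowest CBL0137 library thus stood far above the highest panobinostat library, and both panobinostat libraries stood above the vehicle range of 0.28 to 0.56 TPM.

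Of 44 tested antiviral effector genes, 31 were called higher with CBL0137 and 1 was called higher with panobinostat, and the list median was 1.81 against -0.11 over all genes. With the replicate block 20 were called toward CBL0137 and 0 toward panobinostat, and the median was 1.83. The IFIT proteins bind viral RNA that lacks host marks. Ifit1 (chr19:34640889-34650009) measured 75.2, 79.9 and 201 TPM with CBL0137 and 3.51 and 6.63 TPM with panobinostat, a difference of 4.20 (SE 0.48, adjusted p = 0.00468). Ifit3 (chr19:34583119-34588982) measured 136, 177 and 446 TPM against 11.2 and 10.9 TPM, with a difference of 4.20 (SE 0.48, adjusted p = 0.00468). Isg15 (chr4:156199424-156200818), the ubiquitin-like modifier that Usp18 removes, was at 134, 112 and 313 TPM with CBL0137 and 10.5 and 14.3 TPM with panobinostat, and its difference was 3.67 (SE 0.41, adjusted p = 0.00468). In these genes CBL0137 replicate 3 was the highest library, replicates 1 and 2 lay close to each other, and the vehicle libraries stood below both drugs.

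The Mx genes, which encode dynamin-like antiviral proteins and are annotated in RefSeq on this reference as transcribed pseudogenes, followed the same order. Mx1 was at 38, 39 and 113 TPM with CBL0137 and 2.58 and 2.08 TPM with panobinostat, and Mx2 at 26.2, 25.9 and 77.8 TPM against 1.44 and 1.38 TPM, with differences of 4.08 (SE 0.46, adjusted p = 0.00468) and 4.004 (SE 0.45, adjusted p = 0.00468). Rsad2, whose product viperin makes a chain-terminating nucleotide, differed by 3.53 (SE 0.43, adjusted p = 0.00476), from 56.9, 52 and 145 TPM to 5.77 and 5.46 TPM. Among the 2-5A synthetases, Oas1a, Oas2 and Oas3 differed by 2.14, 1.84 and 2.45 and all were called. Ifit3b, at 37.8, 45.1 and 123 TPM against 2.85 and 3.64 TPM, and Ifit1bl1, at 31.2, 48 and 122 TPM against 1.04 and 1.93 TPM, are close copies of Ifit3 and Ifit1, and the authors' counting could split reads between such copies, as it could between Tgtp1 and Tgtp2.

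The list was not uniform. Ifitm1, 1 of the membrane proteins that hinder viral entry, was the member called the other way, at 3.23, 4.55 and 17.5 TPM with CBL0137 and 21 and 24.9 TPM with panobinostat, a difference of -1.66 (SE 0.50, adjusted p = 0.0448). Its neighbour Ifitm3 was high with both drugs, at 218, 213 and 517 TPM and 189 and 292 TPM against a vehicle range of 15 to 28.7 TPM, and the 95% interval of its difference was -0.63 to 1.22. Ifi27l2a was likewise not called, at 235, 523 and 1141 TPM against 514 and 425 TPM, with an interval of -1.20 to 1.51. For Ifi27l2a both panobinostat libraries lay within the range of the CBL0137 libraries, and for Ifitm3 replicate 3 did.

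All 14 interferon-inducible GTPases tested were called higher with CBL0137, with a list median of 2.42 and differences from 1.79 to 3.80. These proteins (the guanylate-binding proteins and the immunity-related GTPases) attack the membranes around intracellular pathogens. Tgtp2 (chr11:49057196-49064212) was at 42.4, 38.7 and 153 TPM with CBL0137 and 3.56 and 3.67 TPM with panobinostat, a difference of 3.80 (SE 0.53, adjusted p = 0.00724). Iigp1 was at 75.8, 83.3 and 225 TPM against 7.06 and 10.6 TPM, a difference of 3.55 (SE 0.52, adjusted p = 0.00801). Gvin1, a giant GTPase gene, was at 32.6, 25.9 and 104 TPM against 2.21 and 3.24 TPM, a difference of 3.63 (SE 0.48, adjusted p = 0.00665). Gbp2 was among the members nearest to 0, at 38.9, 41 and 114 TPM against 14.9 and 16.4 TPM (1.80). Leaving out CBL0137 replicate 3, the list median was 1.96 with all 14 called, without panobinostat replicate 1 it was 2.51 with 9 called, and without panobinostat replicate 3 it was 2.55 with 0 called.

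The nucleic acid sensors and their adaptors were divided. Of 14 tested, 6 were called higher with CBL0137, all of them sensors that interferon itself induces. Zbp1, a sensor of Z-form nucleic acid, was at 37.2, 41.6 and 115 TPM with CBL0137 and 8.86 and 10.4 TPM with panobinostat, a difference of 2.44 (SE 0.42, adjusted p = 0.0102). Ddx58, which encodes RIG-I, was at 26.8, 26.7 and 65.8 TPM against 9.12 and 9.16 TPM, a difference of 1.87 (SE 0.39, adjusted p = 0.015). Ifih1, which encodes MDA5, was at 20.4, 18.6 and 46.1 TPM against 6.61 and 7.8 TPM, a difference of 1.72 (SE 0.39, adjusted p = 0.0184). The RNA-dependent kinase gene Eif2ak2, Ifi204 and Dhx58 were the other 3, with differences of 1.48, 1.48 and 1.34.

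The adaptor Mavs, through which RIG-I and MDA5 signal, was called the other way, at 5.51, 6.38 and 8.17 TPM with CBL0137 and 12.9 and 15.6 TPM with panobinostat, a difference of -0.995 (SE 0.21, adjusted p = 0.0162). The DNA-sensing adaptor gene Tmem173 (STING) was at 4.23, 5.5 and 14.6 TPM against 11.6 and 14.4 TPM and was not called, with an interval of -1.66 to 0.09. The calls in this list without CBL0137 replicate 3 were 6 toward CBL0137 and 4 toward panobinostat, against 6 and 1 with it.

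Signalling components of the interferon pathway were divided as well, with 5 of 19 called higher with CBL0137, 4 called higher with panobinostat and a median of -0.37, and without CBL0137 replicate 3 the calls were 5 and 10. Among the 5 were Usp18 and genes of transcription factors downstream of the receptor. Irf7 (chr7:141263183-141266499), which amplifies interferon gene transcription, was at 94.9, 88.5 and 263 TPM with CBL0137 and 7.24 and 10.3 TPM with panobinostat, a difference of 3.77 (SE 0.46, adjusted p = 0.00476). Irf9, a subunit of the ISRE-binding complex, was at 42.8, 36.3 and 70.5 TPM against 14.2 and 15.1 TPM, a difference of 1.64 (SE 0.27, adjusted p = 0.0098). Stat2 differed by 1.37 (SE 0.41, adjusted p = 0.0429). The 4 called the other way were 2 receptor genes, the upstream factor Irf3 and Socs3. Ifngr1 was at 13.2, 15.4 and 25.1 TPM with CBL0137 and 37.9 and 41.8 TPM with panobinostat, a difference of -1.16 (SE 0.25, adjusted p = 0.0169). Ifnar2 differed by -0.87 (SE 0.23, adjusted p = 0.0296), Irf3 by -0.69 (SE 0.19, adjusted p = 0.0343) and Socs3, a feedback inhibitor of cytokine signalling, by -1.13 (SE 0.28, adjusted p = 0.0239). The kinases Jak1 and Jak2 were not called, with intervals of -0.69 to 0.25 and -0.43 to 0.60.

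Transcripts of interferon beta itself (Ifnb1, looked up after the pathway's values were seen) were at 4.23, 2.49 and 8.65 TPM in the CBL0137 libraries and listed at 0 in both panobinostat libraries and all 3 vehicle libraries.

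Of 8 interferon-linked chemokines, 3 were called higher with CBL0137, namely Cxcl9, Cxcl10 and Cxcl11, the genes of the CXCR3 ligands. CXCR3 is a receptor of activated T cells, and RefSeq annotates Cxcl11 on this reference as a transcribed pseudogene. Cxcl10 (chr5:92346638-92348889) was at 96.6, 83.2 and 317 TPM with CBL0137 and 5.85 and 4.27 TPM with panobinostat, a difference of 4.52 (SE 0.53, adjusted p = 0.00476). Cxcl9 was at 23.2, 16.2 and 64.9 TPM against 2.22 and 1.96 TPM, a difference of 3.29 (SE 0.59, adjusted p = 0.0108), and Cxcl11 at 7.2, 3.18 and 16.9 TPM against 0.32 and 0.2 TPM, a difference of 2.76 (SE 0.56, adjusted p = 0.0144). The CC chemokines that draw monocytes were not called. Ccl2 was at 82.9, 102 and 190.1 TPM with CBL0137 and 76 and 129 TPM with panobinostat, against 5.66 to 10.7 TPM in vehicle tumours, and the interval of its difference was -0.61 to 1.08. Ccl7 had an interval of -1.06 to 1.16.

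Of 22 other chemokines and cytokines, 5 were called higher with panobinostat and 1 higher with CBL0137, with a median of -0.78. Over all genes the shares called were 12.1% and 6.81%, in that order. Cxcl12, made by stromal cells, was at 4.34, 8.73 and 27.4 TPM with CBL0137 and 45.8 and 66.5 TPM with panobinostat, a difference of -2.30 (SE 0.66, adjusted p = 0.0389). The neutrophil attractant gene Cxcl5 was at 0.86, 1.32 and 2.72 TPM against 10 and 10.7 TPM (-2.17), and Ccl9 at 9.51, 21 and 37.1 TPM against 63.8 and 105 TPM (-2.004), and Cxcl14 and Cxcl1 completed the 5 (-1.67 and -1.56). Ccl4 was the member higher with CBL0137, at 18.1, 16.3 and 34.8 TPM against 6.73 and 6.98 TPM (1.54 (SE 0.44, adjusted p = 0.0371)). In this list there were 11 calls toward panobinostat and 0 toward CBL0137 without CBL0137 replicate 3. With the replicate block there were 2 and 0.

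**Figure D3:**
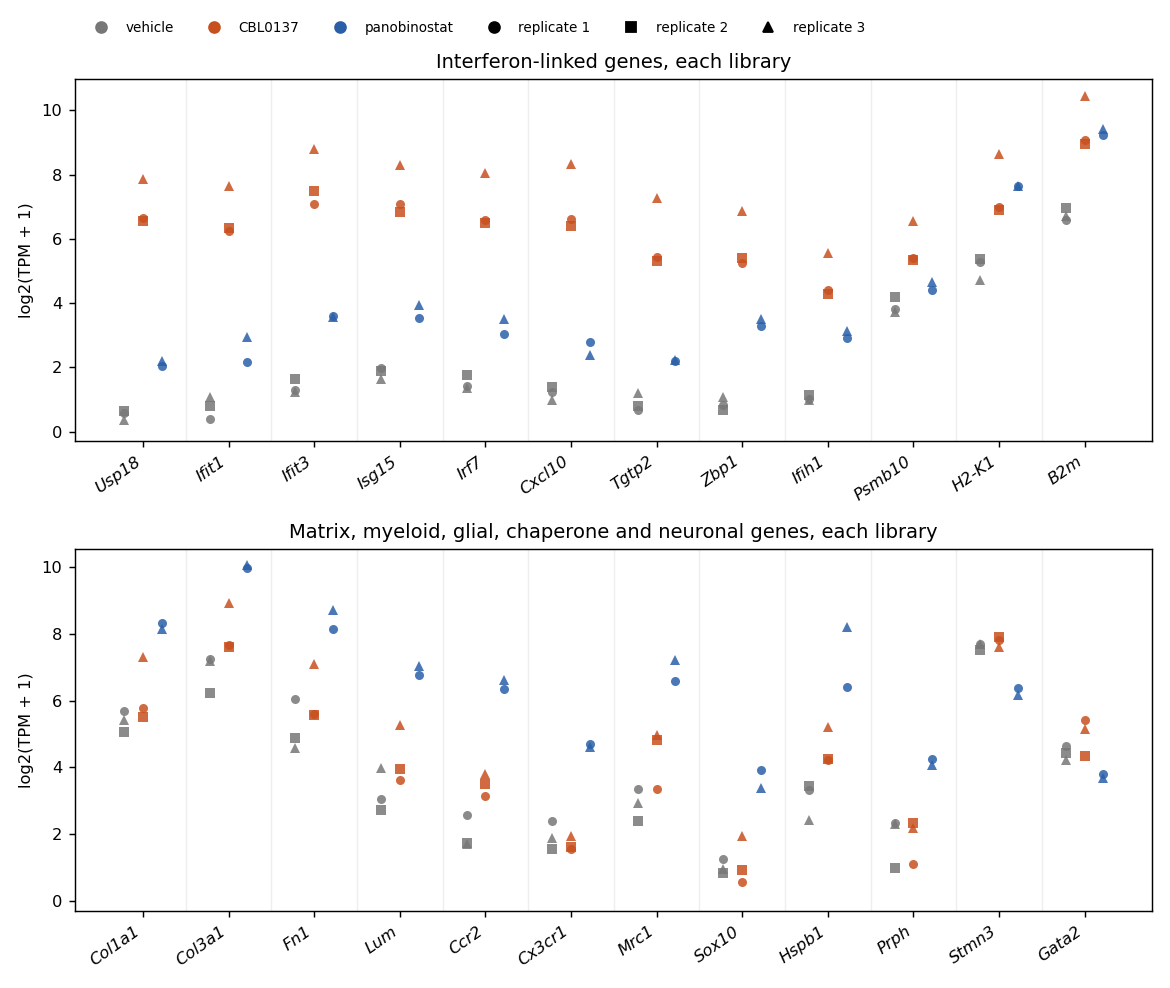
Each point is 1 library, on the log2(TPM + 1) scale, for 24 genes in vehicle, CBL0137 and panobinostat tumours, with replicates told apart by shape. In the upper row the CBL0137 libraries lie above the panobinostat libraries for Usp18 through Psmb10 and overlap them for H2-K1 and B2m, and in the lower row the panobinostat libraries lie above for Col1a1 through Prph and below for Stmn3 and Gata2.

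Class I antigen presentation shared the direction of the effectors in part. Of 21 genes tested, 4 were called higher with CBL0137 and 0 higher with panobinostat, with a median of 0.73. The 4 were the nonclassical gene H2-T24 (28.4, 34.3 and 77.8 TPM against 12.1 and 12.2 TPM, a difference of 1.72 (SE 0.40, adjusted p = 0.0199)) and 3 genes of the immunoproteasome and its activator, Psmb10, Psme1 and Psme2, with differences of 1.24, 0.73 and 0.87. The classical heavy chains and the light chain were not called. H2-K1 was at 125, 118 and 395 TPM with CBL0137 and 201 and 200.4 TPM with panobinostat, and the interval of its difference ran from -1.25 to 0.94. B2m was at 543, 491 and 1407 TPM against 599 and 688 TPM, with an interval of -0.74 to 1.08. For H2-K1 the panobinostat libraries lay above CBL0137 replicates 1 and 2 and below replicate 3, and the vehicle range was 25.5 to 40.3 TPM. The checkpoint ligand gene Cd274 was at 9.67, 8.12 and 30.5 TPM against 5.31 and 4.23 TPM without overlap and missed the threshold, with a difference of 1.34 (SE 0.49, adjusted p = 0.0823). The list median was 0.27 with 1 call without CBL0137 replicate 3.

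Class II genes, whose products present peptides on macrophages, dendritic cells and B cells, had a median of -0.86 with 0 of 10 called in limma and 2 at an unadjusted p under 0.05. H2-DMb1 was at 7.78, 7.11 and 23.9 TPM with CBL0137 and 28.2 and 25 TPM with panobinostat, with an interval of -2.20 to -0.18. Without CBL0137 replicate 3, the library with the highest B cell and macrophage sums of its group, 7 of the 10 were called higher with panobinostat and the median was -1.44.

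Genes of the extracellular matrix formed the most uniform group toward panobinostat. Of 32 collagens and matrix proteins, 30 were called higher with panobinostat and 0 higher with CBL0137, and the median was -1.91. The fibrillar collagen gene Col1a1 was at 54, 44.6 and 159 TPM with CBL0137 and 319.9 and 281 TPM with panobinostat, a difference of -2.03 (SE 0.44, adjusted p = 0.0169). Col3a1 was at 201, 195 and 486 TPM against 1008 and 1068 TPM, a difference of -1.95 (SE 0.43, adjusted p = 0.018). The microfibrillar collagen gene Col6a1 was at 27.3, 23.6 and 49.6 TPM against 112 and 121 TPM, a difference of -1.84 (SE 0.29, adjusted p = 0.00926). In each of these genes CBL0137 replicate 3 lay between the other CBL0137 libraries and the panobinostat libraries, and the vehicle range was 32.6 to 50.8 TPM for Col1a1, 74.4 to 150.4 TPM for Col3a1 and 12 to 15.5 TPM for Col6a1.

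Basement membrane and adhesive proteins stood on the same side. The laminin gene Lama2 was at 0.87, 1.93 and 4.1 TPM with CBL0137 and 13.6 and 17.6 TPM with panobinostat, a difference of -2.44 (SE 0.36, adjusted p = 0.00801). Fn1, which encodes fibronectin, was at 47.7, 46.1 and 135 TPM against 284 and 416 TPM, a difference of -2.35 (SE 0.49, adjusted p = 0.0158). Fbn1 and Col5a2 differed by -1.78 and -2.03, and the proteoglycan gene Lum, the furthest of the list, by -2.63 (SE 0.58, adjusted p = 0.0181). The 2 members not called were Thbs1 and Col18a1, whose differences were also below 0. Without CBL0137 replicate 3 the median was -2.36 with 31 called, without panobinostat replicate 3 it was -1.77 with 0 called, and without panobinostat replicate 1 it was -1.99 with 13 called.

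Enzymes that cross-link or cut matrix were called higher with panobinostat in 15 of 20 cases, with a median of -1.49. The cross-linking oxidase gene Loxl1 was at 5.38, 6.31 and 14.2 TPM with CBL0137 and 33.6 and 61.3 TPM with panobinostat, a difference of -2.38 (SE 0.37, adjusted p = 0.00902), and Lox differed by -1.96 (SE 0.39, adjusted p = 0.0134). The protease inhibitor gene Timp2 differed by -1.47 (SE 0.29, adjusted p = 0.013) and the cysteine protease gene Ctsk by -1.46 (SE 0.29, adjusted p = 0.0131). Of 18 genes that respond to TGF-beta or YAP, 7 were called higher with panobinostat, with a median of -1.26. Among them were the ligand genes Tgfb1 (7.38, 5.36 and 19.1 TPM against 29.1 and 27.9 TPM) and Tgfb2 (1.86, 1.28 and 2.24 TPM against 6.75 and 7.71 TPM), with differences of -1.53 and -1.57, the signal transducer gene Smad3 (-1.31) and the matrix protein gene Tgfbi (-1.72).

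Markers of the cells that make matrix moved with these genes, and their part in the differences was not tested. Of 19 fibroblast and pericyte markers, several of which are collagen genes of the list above, 13 were called higher with panobinostat, with a median of -1.95. With the replicate block 4 were called, and the median was -1.74. The summed level of the 19 was 909, 816 and 1828 TPM in the CBL0137 libraries, 3578 and 4464 TPM in the panobinostat libraries and 362 to 584 TPM in vehicle tumours, and no marker was at 0 in any of the 3 groups. The stromal adhesion protein gene Postn was at 108, 159.9 and 265 TPM with CBL0137 and 682 and 811 TPM with panobinostat, a difference of -2.16 (SE 0.37, adjusted p = 0.0102).

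Monocyte and macrophage markers were also toward panobinostat, with 13 of 22 called higher there, 0 higher with CBL0137 and a median of -1.06. The sum of the 22 was 2152, 2111 and 4369 TPM with CBL0137, 5486 and 7033 TPM with panobinostat and 1160 to 1372 TPM in vehicle tumours, and no marker was at 0 throughout a group. Ccr2 (chr9:124101918-124109140), the receptor that draws monocytes out of the blood, was at 7.83, 10.2 and 12.9 TPM with CBL0137 and 79.8 and 98 TPM with panobinostat, a difference of -3.01 (SE 0.36, adjusted p = 0.00476). Cx3cr1 (chr9:120048683-120068296), the fractalkine receptor of patrolling monocytes and resident macrophages, was at 1.96, 2.07 and 2.84 TPM against 25.2 and 23.3 TPM, a difference of -2.95 (SE 0.29, adjusted p = 0.00466). In Cx3cr1 the CBL0137 libraries lay within the vehicle range of 1.96 to 4.29 TPM.

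The mannose receptor gene Mrc1 was at 9.2, 27.2 and 30.6 TPM with CBL0137 and 95.6 and 149 TPM with panobinostat, a difference of -2.53 (SE 0.48, adjusted p = 0.012). The general macrophage genes Csf1r, Adgre1 and Cd68 differed by less, at -1.46, -1.04 and -1.08, and were called. Ly6c2, a marker of inflammatory monocytes that interferon also induces, lay on the other side and was not called, at 42.6, 39 and 90.5 TPM against 15.9 and 19.9 TPM, with an interval of 0.36 to 2.69. Without CBL0137 replicate 3 there were 19 of 22 calls toward panobinostat and the median was -1.44. With the replicate block 8 were called toward panobinostat, with a median of -1.06, and without panobinostat replicate 1 the median was -1.26.

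Of 8 tested neutrophil markers, 5 were called higher with panobinostat, with a median of -1.54. S100a8, which encodes a subunit of calprotectin, was at 14.5, 14.9 and 24.3 TPM with CBL0137 and 58.2 and 151 TPM with panobinostat, a difference of -2.37 (SE 0.51, adjusted p = 0.0169). The collagenase gene Mmp8 differed by -1.62 (SE 0.27, adjusted p = 0.0101) and the chemokine receptor gene Cxcr2 by -1.37 (SE 0.30, adjusted p = 0.0181). S100a9 and Mmp9 were the other calls (-2.80 and -1.51). The sum of the 12 neutrophil markers in the table was 52.4, 60.3 and 114 TPM with CBL0137 and 244 and 461 TPM with panobinostat, and the granule markers Camp and Stfa1 were listed at 0 in all 5 libraries. Complement genes were toward panobinostat in 7 of 15 cases, with a median of -1.28. C1qc, made by macrophages, was at 200.04, 179.7 and 356 TPM against 560.1 and 700.2 TPM, a difference of -1.42 (SE 0.31, adjusted p = 0.0168). The complement calls numbered 11 without CBL0137 replicate 3 and 5 with the replicate block.

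Of 13 tested Schwann cell and glial markers, 9 were called higher with panobinostat, with a median of -1.66. Sox10, the master factor of the glial lineage, was at 0.47, 0.92 and 2.84 TPM with CBL0137 and 14.3 and 9.44 TPM with panobinostat, a difference of -2.51 (SE 0.59, adjusted p = 0.0201). The adhesion gene Cdh19 was at 0.57, 1.92 and 4.74 TPM against 24.5 and 18.2 TPM, a difference of -2.90 (SE 0.57, adjusted p = 0.0137), and Fabp7 at 2.91, 10.7 and 15.3 TPM against 65.8 and 51.2 TPM, a difference of -2.70 (SE 0.60, adjusted p = 0.0182). CBL0137 replicate 1 was the lowest library in all 3 genes. The sum of the 14 markers in the table was 111, 109 and 143 TPM with CBL0137, 290 and 270 TPM with panobinostat and 93.2 to 127 TPM in vehicle tumours. Without panobinostat replicate 1 no member was called, with a median of -1.67.

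Endothelial markers gave 1 call of 18, Vwf, which encodes von Willebrand factor, at 1.53, 0.94 and 3.72 TPM with CBL0137 and 11.9 and 8.9 TPM with panobinostat, a difference of -1.99 (SE 0.34, adjusted p = 0.0102). The list median was -0.83, and the vessel gene Pecam1 had an interval of -1.68 to -0.04. There were 7 calls without CBL0137 replicate 3. In limma 0 of 16 T cell, 0 of 11 B cell and 0 of 5 NK and cytotoxic markers tested were called, and 0 of them had an unadjusted p under 0.05, with medians of 0.64, 0.79 and 0.42. These medians rested on CBL0137 replicate 3, since the T cell median was -0.09 and the B cell median 0.11 without it. Cd8a was at 0.65, 1.27 and 3.29 TPM with CBL0137 and 0.42 and 0.81 TPM with panobinostat, with an interval of -0.37 to 1.68. The 8 dendritic cell, 15 skeletal muscle, 8 fat cell, 8 adrenal cortex, 4 kidney and 6 red cell markers tested also gave 0 calls in limma, with medians of -0.20, -2.75, -0.77, -0.06, -0.69 and -1.50 in that order, and 2 dendritic and 1 fat cell marker had an unadjusted p under 0.05. After quantile normalization the dendritic and adrenal medians were 0.17 and 0.05. The muscle median was 1.53 without panobinostat replicate 3 and -6.90 without panobinostat replicate 1, and 2 dendritic markers were called toward panobinostat without CBL0137 replicate 3.

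**Figure D4:**
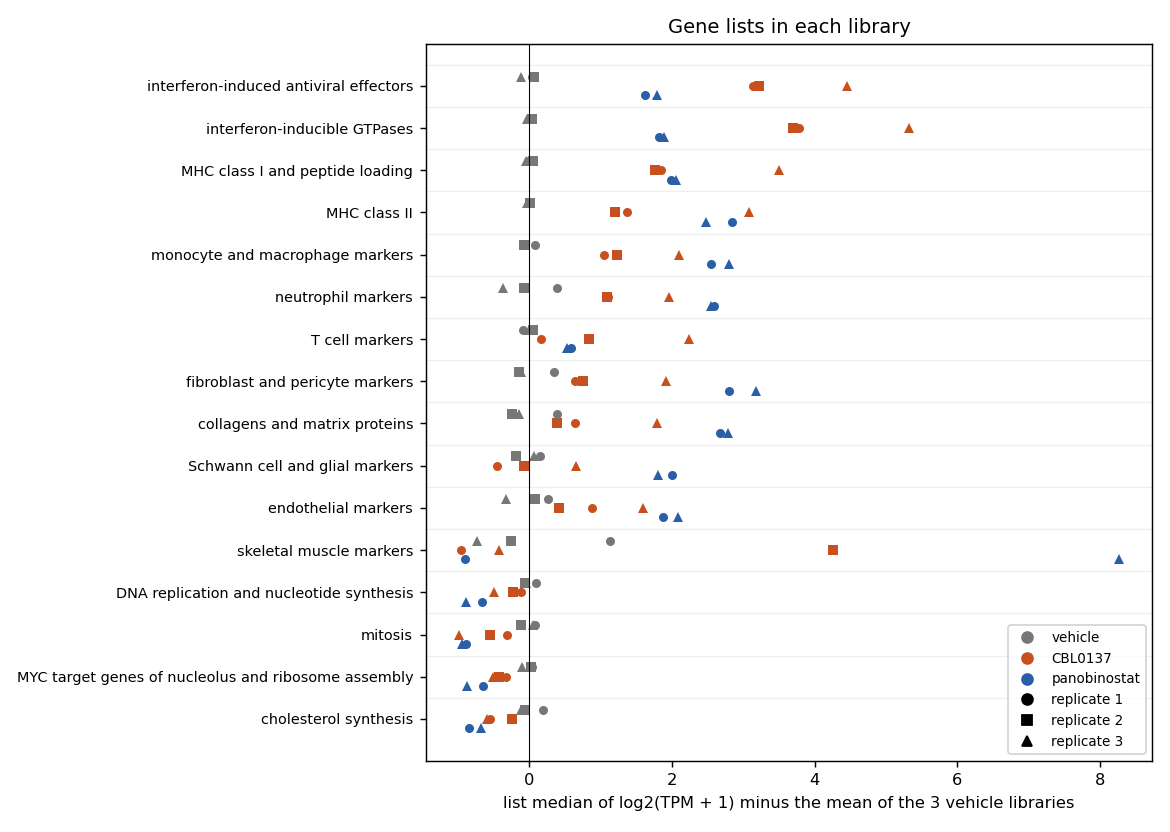
For 16 gene lists, each point gives 1 library's list median of log2(TPM + 1) after subtracting each gene's mean over the 3 vehicle libraries (horizontal axis). CBL0137 replicate 3 lies to the right of the other CBL0137 libraries for the interferon, immune and stromal lists, and the skeletal muscle markers separate panobinostat replicate 3 and CBL0137 replicate 2 from all other libraries.

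Among genes of the neuroblast itself, several of the neuronal cytoskeleton were higher with CBL0137. Of 27 genes in that list, 4 were called higher with CBL0137 and 1 with panobinostat, with a median of 0.39. Stmn3, a microtubule regulator, was at 222, 238 and 194 TPM with CBL0137, 82.8 and 70.8 TPM with panobinostat and 182 to 208 TPM in vehicle tumours, a difference between the drugs of 1.49 (SE 0.15, adjusted p = 0.00468). Tuba1a, the tubulin of migrating neurons, was at 2358, 2419.6 and 1804 TPM against 1057 and 1171 TPM and at 2281 to 2383 TPM in vehicle tumours, a difference of 0.97 (SE 0.17, adjusted p = 0.0108). In both genes at least 2 of the CBL0137 libraries lay near the vehicle range and the panobinostat libraries lay below it. Stmn4 and Map2 differed by 1.13 and 0.69. The peripheral intermediate filament gene Prph was the member called the other way, at 1.14, 4.07 and 3.53 TPM against 18.1 and 15.8 TPM, a difference of -2.29 (SE 0.47, adjusted p = 0.015).

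Catecholamine genes were called higher with CBL0137 in 3 of 18 cases, with a median of 0.42. Ddc, whose product turns L-DOPA into dopamine, was at 442, 514 and 365 TPM with CBL0137 and 189 and 211 TPM with panobinostat, a difference of 1.12 (SE 0.18, adjusted p = 0.0098). Cyb561, which supplies electrons to dopamine beta-hydroxylase, differed by 0.75 (SE 0.15, adjusted p = 0.014), and Gch1, which starts synthesis of the tyrosine hydroxylase cofactor, by 0.72 (SE 0.22, adjusted p = 0.0449). Th, whose promoter drives the transgene in this model, was at 287, 249 and 342 TPM against 215 and 120.5 TPM and was not called, with an interval of -0.07 to 1.76.

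Of 17 core transcription factors of the noradrenergic state, 1 was called, with a list median of -0.10 that became 0.01 with TMM factors. Gata2 was at 42, 19.3 and 34.2 TPM with CBL0137 and 13 and 11.9 TPM with panobinostat, a difference of 1.22 (SE 0.34, adjusted p = 0.036), and without CBL0137 replicate 3 its adjusted p was 0.0597. Hand2 was not called, with an interval of -0.65 to 0.55. The mouse Mycn gene was at 5.97, 6.15 and 10.2 TPM against 12.2 and 7.33 TPM, with an interval of -1.28 to 0.59, and the MYCN transgene was not analysed here.

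Of 27 ion channel genes, 2 were called higher with CBL0137 and 4 higher with panobinostat, shares near the 6.81% and 12.1% over all genes, with a median of -0.25 that became 0.22 after quantile normalization. The potassium channel genes Kcna1 and Kcna2 were at 0.08, 0.17 and 0.37 TPM and 0.58, 1.11 and 1.62 TPM with CBL0137 and at 4.78 and 2.59 TPM and 10.9 and 6.72 TPM with panobinostat, differences of -1.92 (SE 0.38, adjusted p = 0.0138) and -2.22 (SE 0.37, adjusted p = 0.00987). The nicotinic receptor subunits were split. Chrnb4 was at 0.52, 0.34 and 0.49 TPM against 3.3 and 3.19 TPM (-1.55 (SE 0.22, adjusted p = 0.00756)), and Chrnb2 at 25.4, 27.6 and 22 TPM against 16.4 and 11.7 TPM (0.80 (SE 0.18, adjusted p = 0.0195)). The calcium channel subunit genes were split in the same way, Cacnb3 being called toward panobinostat (-0.65) and Cacna2d1 toward CBL0137 (0.50). Of 23 genes of synapses and neurosecretion, 1 was called (2 without CBL0137 replicate 3), Rab3b, at 0.68 (SE 0.19, adjusted p = 0.0334).

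Receptors for growth factors were called higher with panobinostat in 4 of 17 cases, with a median of -0.36 that became 0.02 after quantile normalization. Ntrk2, which encodes the BDNF receptor, was at 1.53, 2.72 and 3.48 TPM with CBL0137 and 9.26 and 6.47 TPM with panobinostat, a difference of -1.33 (SE 0.26, adjusted p = 0.0126). Ngfr, Erbb3 and Gfra2 differed by -1.63, -1.89 and -1.10, and the first 2 are also expressed by Schwann cells. Of 9 oncofetal genes, Igf2 (3.65, 3.48 and 3.23 TPM against 25.9 and 14.3 TPM, a difference of -2.19 (SE 0.55, adjusted p = 0.0251)), the neighbouring noncoding gene H19 (107, 225 and 197 TPM against 689.9 and 1029 TPM, -2.32 (SE 0.67, adjusted p = 0.0389)) and Igf2bp2 (-1.001) were called higher with panobinostat. Peg3, another imprinted gene, was called higher with CBL0137, at 86.7, 87.8 and 83.8 TPM against 53.6 and 47.4 TPM, a difference of 0.76 (SE 0.19, adjusted p = 0.0257).

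Cell cycle inhibitor genes were called in both directions. Cdkn1a, which encodes the cell cycle inhibitor p21, was above the vehicle range of 3.86 to 6.47 TPM with both drugs and was not called between them, at 15.8, 15.9 and 47.5 TPM with CBL0137 and 23.5 and 23.5 TPM with panobinostat, with an interval of -0.93 to 0.86. Its relative Cdkn1c, which encodes p57, was called higher with panobinostat, at 5.3, 6.86 and 6.57 TPM against 18.7 and 15.1 TPM, a difference of -1.30 (SE 0.23, adjusted p = 0.0108). Cdkn1b (p27) and Cdkn2d (p19) were called higher with CBL0137, by 0.53 and 0.66. These 3 were the calls among the 7 inhibitors tested, whose median was -0.16 and became 0.08 after quantile normalization.

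The D-type cyclins were split between the drugs. Ccnd1 was at 342, 300.1 and 316 TPM with CBL0137, 192 and 165 TPM with panobinostat and 278 to 375 TPM in vehicle tumours, a difference of 0.84 (SE 0.20, adjusted p = 0.021). Ccnd3 was at 21.4, 21.9 and 28.6 TPM against 39.6 and 45.9 TPM, a difference of -0.82 (SE 0.19, adjusted p = 0.02). Cdk4, the kinase they activate, differed by 0.80 (SE 0.19, adjusted p = 0.0228), and its target Rb1 by -0.44 (SE 0.12, adjusted p = 0.0294). These were the 4 calls among 17 genes of the G1 to S transition, 2 toward each drug. Over all genes 6.81% were called toward CBL0137 and 12.1% toward panobinostat. The list median was -0.05 and became 0.06 with TMM factors and 0.08 after quantile normalization. Without CBL0137 replicate 3 the calls toward panobinostat were 4.

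DNA replication genes were called higher with CBL0137 in 7 of 44 cases and higher with panobinostat in 0, with a median of 0.51. Over all genes 6.81% were called toward CBL0137. The median level of the list was 78.4 TPM in vehicle tumours, 64.7 TPM with CBL0137 and 44 TPM with panobinostat, so both drugs stood below vehicle. With the replicate block 1 was called, and the median was 0.59. The clamp loader gene Rfc3 was at 113, 106 and 88 TPM with CBL0137 and 64.3 and 56.4 TPM with panobinostat, a difference of 0.75 (SE 0.18, adjusted p = 0.0212). Pole2, Orc6 and Gins4 differed by 0.74, 0.81 and 0.51, and the sliding clamp gene Pcna by 0.74. In limma 0 of 42 mitosis genes and 0 of 32 homologous recombination and checkpoint genes were called, both lists having a median of 0.30, and 1 and 5 of them had an unadjusted p under 0.05. Without CBL0137 replicate 3 there was 1 call in each list. The proliferation marker Mki67 was at 260.1, 235 and 166 TPM against 236 and 189 TPM, with an interval of -0.87 to 0.93.

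MYC target genes of the nucleolus and ribosome assembly were called higher with CBL0137 in 10 of 40 cases, with a median of 0.35. Their median level was 67 TPM in vehicle tumours, 49.8 TPM with CBL0137 and 40.1 TPM with panobinostat. Rrn3, an RNA polymerase I initiation factor, was at 72.9, 79.3 and 67 TPM with CBL0137 and 48.3 and 46.9 TPM with panobinostat, a difference of 0.60 (SE 0.10, adjusted p = 0.0102), and the rRNA methyltransferase gene Fbl differed by 0.66 (SE 0.16, adjusted p = 0.0211). Wdr75 and Polr1c differed by 0.52 and 0.58. Cytosolic ribosomal protein genes were called higher with CBL0137 in 5 of 40 cases, with a median of 0.25, Rpl30 being the furthest at 0.64 (SE 0.14, adjusted p = 0.018) and Rps7, Rps3 and Rps4x being among the others (0.50, 0.45 and 0.38). Quantile normalization left 2 and 1 calls in these lists, and without CBL0137 replicate 3 there were 11 calls in each. Of 11 genes of the MYC network itself, 1 was called, Mlx, which encodes a dimer partner of MXD and MONDO proteins, at 0.52 (SE 0.14, adjusted p = 0.0289). In that list 2 genes were called toward CBL0137 and 1 toward panobinostat without CBL0137 replicate 3, and its median of 0.10 became -0.12 without panobinostat replicate 3.

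Genes of the drugs' own targets were next compared. Ssrp1 and Supt16, which encode the subunits of FACT, were at 205, 194 and 154 TPM and 139, 128 and 103 TPM with CBL0137 and at 137 and 128 TPM and 104 and 94.7 TPM with panobinostat. Their vehicle means of 228 and 163 TPM lay above both drugs. Neither was called, with adjusted p of 0.0585 and 0.219 in limma and intervals of 0.12 to 0.81 and -0.07 to 0.66. In limma Ssrp1 passed with TMM factors (adjusted p = 0.0498) and without CBL0137 replicate 3 (adjusted p = 0.0174). It did not pass after quantile normalization (adjusted p = 0.146) or with the replicate block (adjusted p = 0.0785). In the list of 18 histone chaperones 1 was called (3 without CBL0137 replicate 3), Npm1, at 1813, 1663 and 1435 TPM against 1047 and 1001 TPM, a difference of 0.67 (SE 0.18, adjusted p = 0.0287). Of 21 histone deacetylase genes, 3 were called higher with CBL0137 and 2 higher with panobinostat, against 18.9% called over all genes, with a median of 0.02 that became -0.01 after rescaling without small RNA and histone genes. Hdac1 was at 53.8, 49.3 and 49.8 TPM with CBL0137 and 39.4 and 33.7 TPM with panobinostat, a difference of 0.47 (SE 0.13, adjusted p = 0.0383), and Hdac2 at 276, 268 and 205 TPM against 176 and 173 TPM, a difference of 0.51 (SE 0.16, adjusted p = 0.0475). The Hdac2 call was lost after quantile normalization, after that rescaling and with the replicate block (adjusted p = 0.104, 0.0806 and 0.0804 in limma). Hdac1 stayed called in each. Sirt1 was also higher with CBL0137 (0.56), while Sirt2 and Hdac8 were higher with panobinostat (-0.67 and -0.58).

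Histone variant genes expressed outside S phase were called higher with CBL0137 in 4 of 10 cases. H3f3a, which encodes H3.3, was at 1658, 1741 and 1490.2 TPM with CBL0137 and 1039 and 1162 TPM with panobinostat, a difference of 0.56 (SE 0.13, adjusted p = 0.0188). H2afy2, H2afz and H3f3b differed by 0.95, 0.71 and 0.49, and the linker histone gene H1f0 was not called, at 226, 225 and 150.3 TPM against 283 and 243 TPM with an interval of -0.93 to 0.11. After quantile normalization 1 of the 10 was called. The polycomb gene Bmi1 was at 113, 105 and 91 TPM against 57.3 and 60.9 TPM, a difference of 0.78 (SE 0.13, adjusted p = 0.0102). Bmi1 and Rbbp7 (0.34) were the 2 calls among 34 polycomb, DNA methylation and heterochromatin genes. That share was near the 6.81% called toward CBL0137 over all genes. Hexim1, an inhibitor of the elongation kinase P-TEFb, was called higher with panobinostat, at -0.63 (SE 0.17, adjusted p = 0.0331), and the acetyltransferase gene Kat8 higher with CBL0137, at 0.52 (SE 0.15, adjusted p = 0.0423). They were the 1 call each way among 16 acetyltransferase and BET reader genes, against 18.9% called over all genes. The polycomb and heterochromatin calls without CBL0137 replicate 3 were 5 toward CBL0137 and 1 toward panobinostat.

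Cytosolic chaperones were divided, with 4 of 20 called higher with CBL0137, 6 higher with panobinostat and a median of 0.18. Relative to the vehicle means, the list median was -0.11, -0.18 and -0.21 in the CBL0137 libraries and -0.37 and -0.45 in the panobinostat libraries. The small heat shock protein gene Hspb1 was at 17.6, 18.2 and 36.1 TPM with CBL0137 and 84.2 and 295 TPM with panobinostat, a difference of -2.75 (SE 0.52, adjusted p = 0.012). Cryab, another small heat shock protein that muscle also expresses, was at 6.21, 9.3 and 11.4 TPM against 21.1 and 212 TPM, a difference of -2.82 (SE 0.74, adjusted p = 0.0285). For Hspb1 and Cryab alike, the higher panobinostat value was in the library with muscle transcripts, and the part of muscle RNA was not tested. Hspa2, an HSP70 relative, was at 4.03, 5.14 and 5.74 TPM against 15 and 12.2 TPM, a difference of -1.29 (SE 0.20, adjusted p = 0.0089). The large chaperone gene Hsp90aa1 was at 1654, 1555 and 1292 TPM with CBL0137 and 868 and 881 TPM with panobinostat, a difference of 0.77 (SE 0.15, adjusted p = 0.0134). Its cochaperone Dnaja1 was at 97.1, 101 and 91 TPM against 59 and 54.9 TPM, a difference of 0.75 (SE 0.10, adjusted p = 0.00665), and Hspd1 and Hspa8 differed by 0.77 and 0.49. Hspb8 and Bag3 (-2.21 and -0.77) were among the calls toward panobinostat.

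In metabolism, 5 of 23 cholesterol synthesis genes were called higher with CBL0137, with a median of 0.32. Relative to the vehicle means, the list median was -0.55, -0.25 and -0.59 in the CBL0137 libraries and -0.85 and -0.68 in the panobinostat libraries. Cyp51, the lanosterol demethylase, was at 28.8, 36.7 and 26.4 TPM with CBL0137 and 18 and 19.8 TPM with panobinostat, a difference of 0.66 (SE 0.17, adjusted p = 0.0295), and Pmvk, Lss and Sqle differed by 0.51, 0.69 and 0.59. Of 19 polyamine and one-carbon genes, Gart, Atic and Odc1 were called higher with CBL0137 (0.51, 0.42 and 0.47). Calls of this list toward CBL0137 numbered 0 after rescaling without small RNA and histone genes and 0 with the replicate block. Quantile normalization left 1, and TMM factors gave 4. Phgdh, the first enzyme of serine synthesis, was called higher with panobinostat, at 1.66, 4.08 and 5.52 TPM against 23.3 and 18.2 TPM, a difference of -2.28 (SE 0.40, adjusted p = 0.0104), and CBL0137 replicate 1 was its lowest library. Phgdh and Vldlr (-1.10) were the 2 calls among 22 genes of the integrated stress response, and Ern1 (-0.92) the 1 among 20 genes of the unfolded protein response. Hk2 was the 1 call among 20 hypoxia and glycolysis genes, at -0.92 (SE 0.28, adjusted p = 0.0476), and 0 of 32 oxidative phosphorylation genes were called in limma, with 2 at an unadjusted p under 0.05 and 2 calls without panobinostat replicate 1. Leaving out CBL0137 replicate 3 gave 5 calls toward CBL0137 among the polyamine and one-carbon genes, 3 toward CBL0137 and 5 toward panobinostat in the integrated stress list, 2 toward panobinostat in the unfolded protein list and 0 among hypoxia and glycolysis genes.

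Hormone- and metal-responsive genes were toward panobinostat in 7 of 13 cases, with a median of -1.04. The metallothionein gene Mt1 was at 223, 205 and 264 TPM with CBL0137, 539 and 788 TPM with panobinostat and 239 to 329.6 TPM in vehicle tumours, a difference of -1.50 (SE 0.22, adjusted p = 0.00784), and Mt2 differed by -1.39 (SE 0.26, adjusted p = 0.012). Zbtb16 and Cebpd differed by -1.20 and -1.72, while Fkbp5, a standard glucocorticoid target, was not called and had an interval of -0.41 to 0.31. Of 12 Krüppel-like factor genes, 3 were called higher with panobinostat, Klf9 (5.63, 5.49 and 6.79 TPM against 14.5 and 16 TPM, a difference of -1.22 (SE 0.19, adjusted p = 0.00926)), Klf3 (-1.38) and Klf13 (-0.70). The clock repressor gene Nr1d1 was at 3.02, 2.82 and 3.08 TPM against 8.32 and 8.16 TPM, a difference of -1.22 (SE 0.27, adjusted p = 0.0175), and Rora, Bhlhe40 and Bhlhe41 differed by -1.41, -1.12 and -0.91. These were the 4 calls toward panobinostat among 18 clock genes, with 1 call toward CBL0137, Cry1 (0.55). Junb was the 1 call among 18 immediate-early and AP-1 genes, at -0.98 (SE 0.26, adjusted p = 0.0303). Leaving out CBL0137 replicate 3 gave 6 calls toward panobinostat in the immediate-early list, 6 among the Krüppel-like factors and 0 toward CBL0137 among the clock genes.

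Most genes of p53 and of cell death were not called. The same held over all genes, with 6.81% called toward CBL0137 and 12.1% toward panobinostat. Phlda3 (6.66, 8.01 and 12.4 TPM against 20.2 and 18.3 TPM, a difference of -1.05 (SE 0.23, adjusted p = 0.0176)) and the death receptor gene Tnfrsf10b (-0.88 (SE 0.26, adjusted p = 0.0415)) were called higher with panobinostat among 26 p53 targets, whose median was -0.07 and became 0.03 with TMM factors and 0.21 after quantile normalization. Mdm2, the p53 ubiquitin ligase and itself a target, was at 41.2, 37.1 and 46.9 TPM against 40.6 and 34.1 TPM, with an interval of -0.15 to 0.46. In this list there were 9 calls toward panobinostat without CBL0137 replicate 3 and 1 with the replicate block. Of 24 BCL2 family and caspase genes, 3 were called higher with CBL0137, among them Bid (0.58) and Hrk (0.995), both BH3-only death promoters, and the list median was -0.04, or 0.07 with TMM factors and 0.18 after quantile normalization. Among 20 NF-kB targets, Bcl2a1b (-1.19) and Ier3 (-1.27) were called higher with panobinostat, and Bcl2a1b has near-identical copies. Without CBL0137 replicate 3 there were 5 calls toward panobinostat in the BCL2 and caspase list and 8 among the NF-kB targets. With the replicate block there was 1 call toward CBL0137 in the former and 1 toward panobinostat in the latter.

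**Figure D5:**
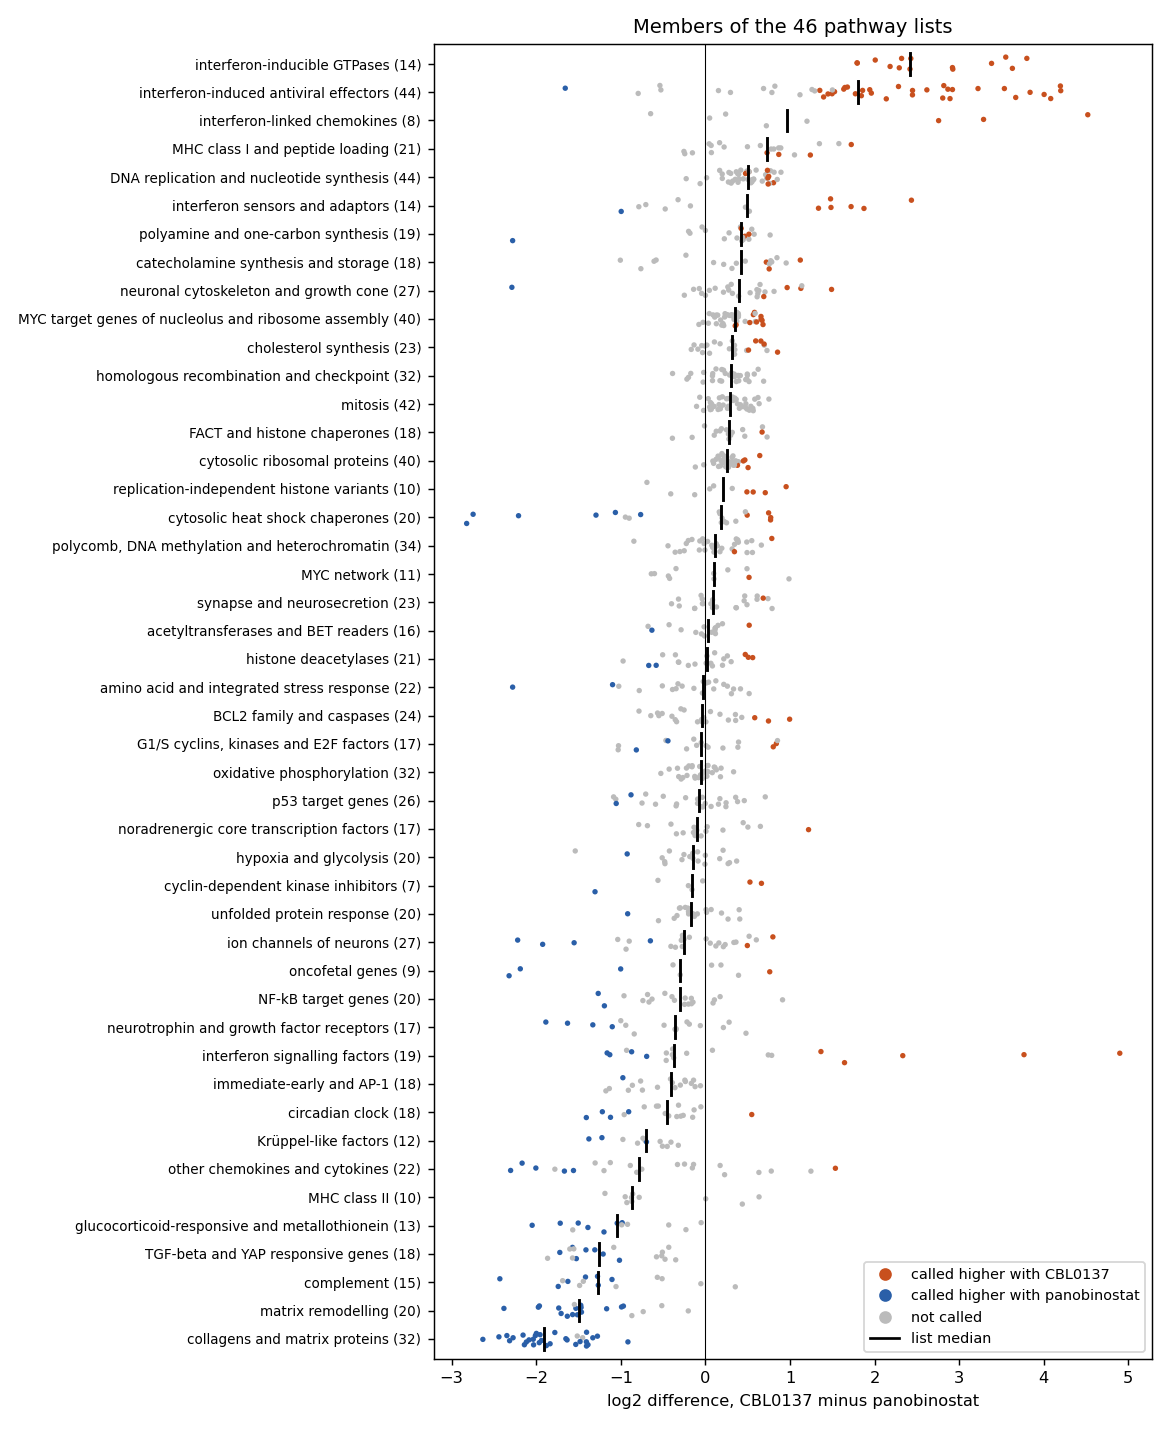
Each point is a tested gene of 1 of 46 pathway lists (number tested in parentheses), placed by its log2 difference, with black bars at the list medians and colours for the calls. The GTPases and antiviral effectors have medians of 2.42 and 1.81, the collagens and matrix proteins a median of -1.91, and most other medians lie within 1 of 0.

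The 12 genes furthest toward panobinostat included Ccr2, Cx3cr1 and Cdh19, given above. Sostdc1, a secreted antagonist of BMP and WNT signalling, was the furthest, at 0.4, 0.59 and 1.73 TPM with CBL0137, 19.9 and 13.1 TPM with panobinostat and 1.4 to 2.7 TPM in vehicle tumours, a difference of -3.23 (SE 0.55, adjusted p = 0.0102). The retinoic acid-binding protein gene Crabp1 was at 2.72, 3.1 and 1.71 TPM against 34.5 and 17.8 TPM, a difference of -2.90 (SE 0.53, adjusted p = 0.0111). The lipid transporter gene Abca8a was at 0.5, 2.59 and 4.68 TPM against 19.2 and 27.5 TPM, and Ndrg2 at 3.48, 12.2 and 13.7 TPM against 41.8 and 107 TPM, with differences of -2.94 (SE 0.54, adjusted p = 0.0112) and -2.84 (SE 0.53, adjusted p = 0.0119). Another 5 of the 12 were several times higher in panobinostat replicate 3, the library with muscle transcripts, than in replicate 1. They were Cox7a1 (71.6 and 503 TPM), Fabp3 (69.8 and 719.7 TPM), Itm2a (13.6 and 110.4 TPM), Dmkn (3.98 and 26.2 TPM) and Cryab, in order of replicates 1 and 3. The first 2 encode a muscle and heart cytochrome oxidase subunit and the heart fatty acid-binding protein. In all of them but Cryab, CBL0137 replicate 2 was the highest CBL0137 library. The part of muscle RNA in these differences was not tested.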

How the data were processed

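Total RNA from mouse tumours was made into Illumina TruSeq Stranded Total RNA libraries with Ribo-Zero depletion from 1 µg of RNA, per the labels' protocols. The values are TPM per gene, deposited by the authors as 1 table, and STAR, SAMtools, RSEM and the mm10 build are named in the submitters' processing notes, with versions not given in the sources used here. TPM shares of multi-copy genes are estimates, and the low TPM values give no read counts. All 27 gene names that a spreadsheet had turned into dates were restored from accessions.

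Groups came from the labels. Genes that reached 1 TPM in 2 or more of the 11 libraries were tested on log2(TPM + 1) with limma 3.58.1 in R 4.3.3, with 4 group means, a trended prior and Benjamini-Hochberg adjustment over all 15497 genes at 0.05. Fitting all 11 libraries pools the spread over 7 residual degrees of freedom. An exact permutation test of 3 against 2 libraries has 10 arrangements and cannot go below a 2-sided p of 0.2, so it was not used. The script was tested on simulated data.

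Named genes were the 12 furthest each way whose higher group averaged 5 TPM or more and whose groups did not overlap (unnamed models, small RNA, histone cluster and antigen receptor genes left out), a panel of 20, and per list up to 4 called members with the lowest adjusted p, or 2 if none was called. Any other named gene was picked with its values known. Some genes that this rule names are not reported here. The comparison, the 60 gene lists (46 pathway, 14 cell type) and the panel were chosen with earlier results of these data known. Alternatives were other pseudocounts (0.1 and 5), filters (none and 5 TPM), scalings (trimmed-mean or TMM factors, here unweighted because TPM carry no counts, quantile normalization, rescaling without small RNA and histone genes), no trend, array weights, the 5 compared libraries alone, 8 libraries without the combination, a replicate block, and each library left out. Coordinates and promoters are from RefSeq on GRCm38.p6, of which mm10 is another name for the primary assembly. Figures were drawn with matplotlib 3.10.9.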

Additional observations from a re-analysis of the deposited data

How the results depend on the processing

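Calls were 1056 toward CBL0137 and 1879 toward panobinostat. They became 1703 and 2891 with array weights and 0 and 0 in a fit of the 5 compared libraries alone, in that order, and quantile normalization left 1174 toward panobinostat. Leaving out 1 library gave 0 to 1437 calls toward CBL0137 and 0 to 2718 toward panobinostat. Same-numbered libraries of different groups were not paired (correlations of deviations from -0.26 to 0.19, with 0.19 for replicate 1 and -0.0416 for replicate 3 of these drugs), and a replicate block gave 414 and 835 calls. Of 200 named genes, 160 were called, 0 of them in all 11 fits with 1 library left out and 52 in 10 of the 11. Medians of 18 of the 60 lists changed sign under at least 1 alternative (37 of 1378 list and setting pairs). Of these, 6 lists had at least 20% of their members called, with 17 such pairs, and their values follow. Over the fits with 1 library left out, the median of cyclin-dependent kinase inhibitors ran from -0.5408 without CBL0137 replicate 3 to 0.1059 without CBL0137 replicate 1, that of G1 to S genes from -0.2499 without panobinostat replicate 3 to 0.2268 without panobinostat replicate 1, and that of histone deacetylases from -0.1611 to 0.1835 without the same libraries. The range was -0.4469 to 0.1953 for ion channels (without panobinostat replicates 3 and 1) and -0.351 to 0.06915 for oncofetal genes (without CBL0137 replicates 3 and 1). After quantile normalization the medians were 0.07985 for cyclin-dependent kinase inhibitors, 0.07608 for G1 to S genes, 0.01882 for growth factor receptors and 0.2188 for ion channels. For G1 to S genes the median was 0.06411 with TMM factors and 0.03803 with the replicate block. For histone deacetylases it was -0.0064 after rescaling without small RNA and histone genes and -0.02775 with array weights. The cause of these changes was not tested. Depth is unknown from TPM and limits weakly expressed genes most.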

Other observations

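Among genes outside every list, looked at after their values were seen, 3 neuronal genes stood higher with CBL0137 than in either the vehicle or the panobinostat libraries. Zcchc12, which encodes a transcriptional coactivator expressed in brain, was at 168, 119 and 106 TPM with CBL0137, 36.6 and 37.4 TPM with panobinostat and 56.8 to 65.6 TPM in vehicle tumours, a difference between the drugs of 1.77 (SE 0.19, adjusted p = 0.00468) in limma. Gjd2, which encodes the neuronal gap junction protein connexin 36, was at 54.3, 46.6 and 47.3 TPM against 15.2 and 13.8 TPM, with vehicle tumours at 17.4 to 26 TPM, a difference of 1.70 (SE 0.20, adjusted p = 0.00468). Caly, which encodes a neuronal vesicle protein, was at 29.3, 48.9 and 32.3 TPM against 12.3 and 6.9 TPM, with vehicle tumours at 12.2 to 20.9 TPM, a difference of 1.85 (SE 0.42, adjusted p = 0.019).

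Other genes outside the lists were lower with panobinostat than in the vehicle and CBL0137 libraries. The angiotensin receptor gene Agtr2 was at 1729.8, 1461 and 947 TPM with CBL0137, 491 and 585 TPM with panobinostat and 1189 to 1237 TPM in vehicle tumours, a difference of 1.32 (SE 0.32, adjusted p = 0.0222). Hmgn2, which encodes a nucleosome-binding protein, was at 683, 685 and 528 TPM against 301 and 297 TPM, with vehicle tumours at 613 to 672 TPM, a difference of 1.07 (SE 0.17, adjusted p = 0.00907). The helicase gene Ruvbl1 was at 111, 106 and 93.6 TPM against 46.4 and 46.4 TPM, with vehicle tumours at 101 to 117 TPM, a difference of 1.14 (SE 0.13, adjusted p = 0.00468). The noncoding paraspeckle RNA gene Neat1 lay the other way, at 12.7, 15.6 and 41.5 TPM with CBL0137 and 96.1 and 96.4 TPM with panobinostat, a difference of -2.19 (SE 0.49, adjusted p = 0.0179).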
